A study of Mus musculus with 16 samples.

Results

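The sebaceous gland genes are a set of 10 mouse genes named by symbol for their known place in the gland: Mgst1, Scd3, Awat1, Awat2, Mc5r, Far2, Fa2h, Dgat2l6, Krt79 and Elovl3. Of these 10, 9 had a row in the count table of 14858 genes, and Dgat2l6 was not analysed here. Of the 9, 8 passed the filter on low counts and were tested, and Awat1 did not pass it.

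Hind limb skin of 16 female BALB/cAnNTac mice, about 10 to 16 weeks of age, was profiled by RNA sequencing after exon capture, with 1 library per mouse. The responder ESE cohort held 4 mice flown to the International Space Station (ISS) and labelled as low in 5-methylcytosine. The non-responder ESE cohort held 6 flown mice labelled as high in 5-methylcytosine, and the ground controls were 6 mice that stayed on the ground. ESE stands for exposure to the space environment and covers both flown cohorts, 10 mice in all. All were of 1 strain, and the skin was sequenced whole, with no sorting of gland cells. Each group held 2 mission arms: mice killed on the ISS, with ground controls of that arm (ISS arm, 5 ESE mice and 3 ground controls), and mice killed after a live return (LAR arm, 5 ESE mice and 3 ground controls). Responder replicates 1 and 2, non-responder replicates 1 to 3 and ground control replicates 1 to 3 belonged to the ISS arm, and the others to the LAR arm. Mice of the LAR arm flew for about 40 days and recovered briefly after landing, while those of the ISS arm were killed on board earlier in the mission, so length of flight, return and arm cannot be told apart.

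The sebaceous gland opens into the upper hair follicle and fills it with sebum, a mixture of triglycerides, wax esters, cholesterol esters and other lipids that a mature sebocyte releases by bursting. In mouse skin the gland's cells turn acyl chains into sebum in steps: elongases and desaturases set the length and saturation of the chain, reductases make fatty alcohols, and acyltransferases join an alcohol to a fatty acid. Melanocortin signalling through Mc5r is known in mice to promote sebum production, and Krt79 marks the cells that line the duct and the funnel of the follicle.

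Total counts per library were 4159342 to 22593931, and 1 ribosomal RNA gene, Rn45s, took 12.9% to 51.9% of them. Levels are given as CPM, counts per 1000000 counts after scaling by TMM, whose factors ran from 0.642 to 1.51. The RNA integrity number was 1.2 to 2.1 in ESE mice and 1.8 to 2.7 in ground controls, and its part in the comparisons was not tested. By summed marker genes, non-responder replicate 4 was rich in fat (8086 CPM over 10 white fat genes, against 182 to 1158 CPM in the other 15 libraries) and ground control replicate 6 in muscle (65371 CPM over 12 muscle genes, against at most 5200 CPM in the other 15). Replicates were separate mice, and none of the 36 pairs of libraries within a group agreed within sampling noise. Library numbers ran in the order of the groups, so an effect of that order and the groups cannot be told apart. In whole skin, fewer gland cells and less RNA per gland cell cannot be told apart either.

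Promoters of Far2, Scd3, Awat1 and Awat2 are shown because these genes were high in the same libraries, and that of Mgst1 because it had the lowest p among the members. Each run is the RefSeq window of 250 bases before to 50 after the start, 5′ to 3′ on the gene's strand, in build GRCm38.p6. Of the 10 members 7 had such an entry, and Fa2h and Elovl3 are among those named only. Capitals mark matches, on either strand, to 1 of the 6 motifs searched, and a match on the opposite strand appears as its reverse complement. These were the TATA-type core promoter element with letters TATAAA, the NF-Y box with letters CCAAT, the core of a nuclear receptor element with letters AGGTCA, the Sp-family box with letters GGGCGG, the E-box with letters CACGTG, and the antioxidant response element core with letters TGACNNNGC.
Far2 (chr6:148047166-148047465, + strand): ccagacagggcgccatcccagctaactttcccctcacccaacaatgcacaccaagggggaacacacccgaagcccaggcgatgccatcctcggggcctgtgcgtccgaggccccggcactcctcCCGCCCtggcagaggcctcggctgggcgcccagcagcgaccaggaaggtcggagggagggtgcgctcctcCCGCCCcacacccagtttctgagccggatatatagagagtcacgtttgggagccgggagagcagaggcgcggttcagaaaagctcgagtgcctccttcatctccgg
Scd3 (chr19:44203038-44203337, + strand): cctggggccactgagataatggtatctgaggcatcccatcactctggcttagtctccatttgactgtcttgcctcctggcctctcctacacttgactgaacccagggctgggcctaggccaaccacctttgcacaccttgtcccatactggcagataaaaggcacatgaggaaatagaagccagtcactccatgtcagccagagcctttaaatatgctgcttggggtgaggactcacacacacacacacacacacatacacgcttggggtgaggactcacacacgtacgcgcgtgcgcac
Awat1 (chrX:100571997-100572296, + strand): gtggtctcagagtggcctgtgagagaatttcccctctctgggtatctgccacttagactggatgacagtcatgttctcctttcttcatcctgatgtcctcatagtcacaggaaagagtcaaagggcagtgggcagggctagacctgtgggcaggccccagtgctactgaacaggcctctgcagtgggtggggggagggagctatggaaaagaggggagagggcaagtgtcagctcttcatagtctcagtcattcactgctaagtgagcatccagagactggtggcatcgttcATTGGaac
Awat2 (chrX:100442668-100442967, - strand): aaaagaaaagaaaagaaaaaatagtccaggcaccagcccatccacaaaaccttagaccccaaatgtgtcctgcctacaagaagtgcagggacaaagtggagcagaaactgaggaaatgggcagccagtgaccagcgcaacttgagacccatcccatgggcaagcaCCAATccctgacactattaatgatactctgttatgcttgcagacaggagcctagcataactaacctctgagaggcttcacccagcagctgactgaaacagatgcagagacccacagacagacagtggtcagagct
Mgst1 (chr6:138140277-138140576, + strand): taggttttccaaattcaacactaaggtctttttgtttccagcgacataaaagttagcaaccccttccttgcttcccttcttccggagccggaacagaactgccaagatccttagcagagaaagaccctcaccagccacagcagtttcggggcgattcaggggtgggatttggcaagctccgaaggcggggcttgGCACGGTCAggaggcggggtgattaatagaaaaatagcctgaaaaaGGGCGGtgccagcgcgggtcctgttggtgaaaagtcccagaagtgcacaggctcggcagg

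The Far2 window held 2 Sp-family boxes, a motif found in 35.7% of the 32851 promoters of that length, and had a GC content of 66%. The windows of Awat1 and Awat2 each held an NF-Y box, found in 37.4% of all promoters. That of Awat2 lay 85 bases before the start and that of Awat1 within the first 50 transcribed bases. The Scd3 window held none of the 6 motifs, and no motif was in all 4 windows. The Mgst1 window held an Sp-family box 10 bases before the start and an antioxidant response element core 56 bases before it, counted from the RefSeq start, which lies 10 bases before that of the count table. The core was in 12.4% of all promoters. The nuclear receptor element core, in 16.3% of all promoters, was in none of the 5 windows, nor were TATAAA, in 13.6%, and CACGTG, in 7.15%. These matches describe letters in the windows and not binding.

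Per kilobase of exon, Krt79 had the highest median level of the 9 genes over the 16 libraries (51.2 CPM per kilobase), followed by Mgst1 (28.4), Elovl3 (7.51), Mc5r (3.85), Far2 (2.94) and Scd3 (2.17). Fa2h (0.422), Awat2 (0.276) and Awat1 (0.150 CPM per kilobase) were the lowest. All neighbours in this order had ranges over the libraries that overlapped. The order is one of captured, uniquely placed reads, and how far capture differed between the genes was not tested.

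**Figure D1:**
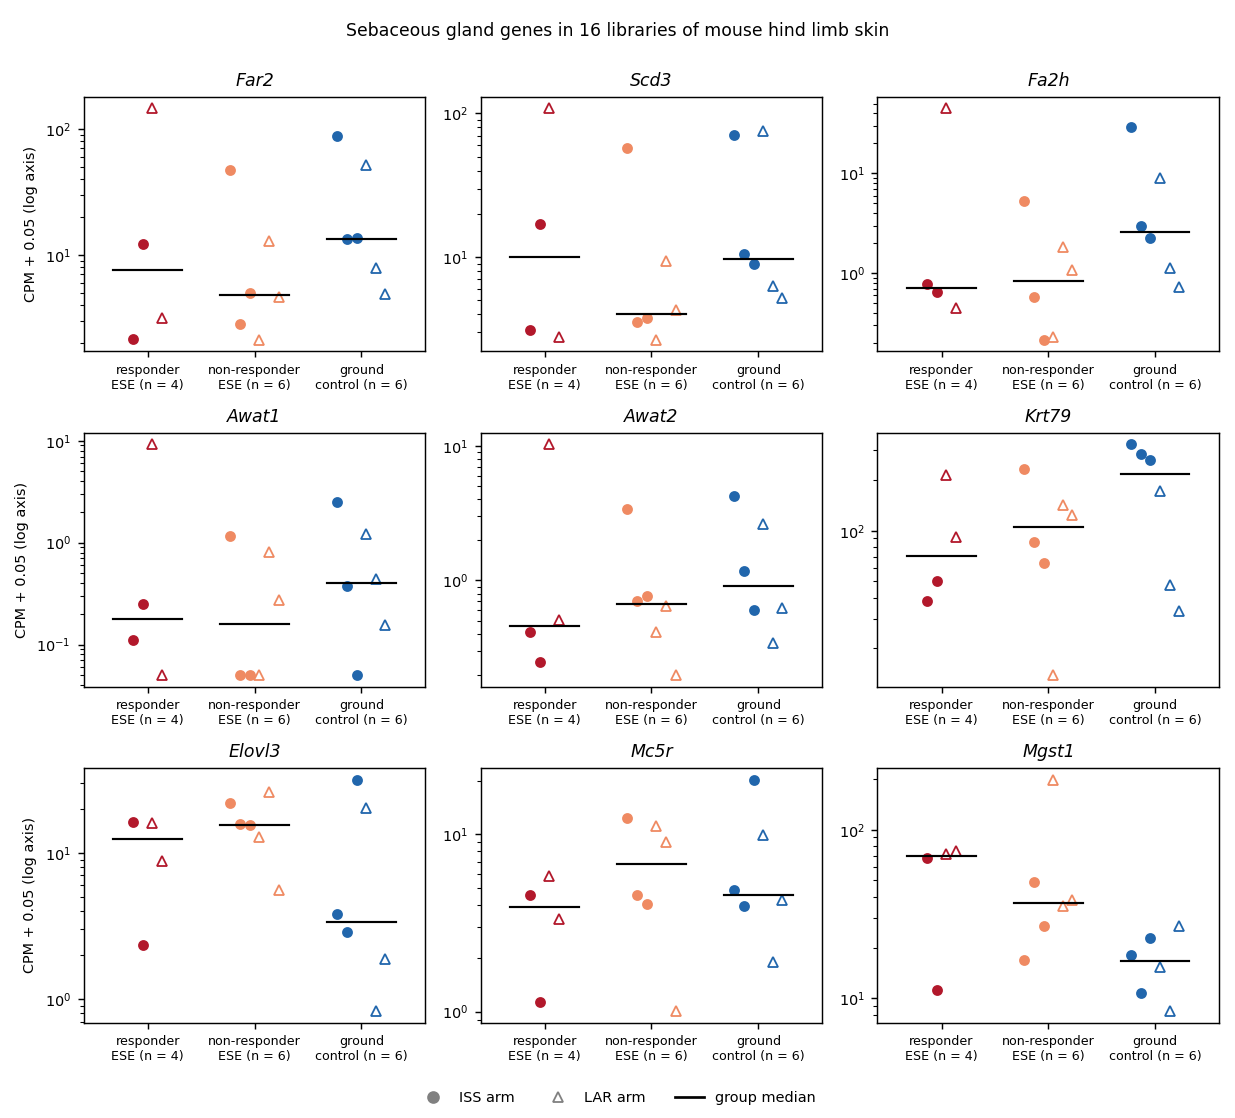
Level of each of the 9 measured sebaceous gland genes in every library, as CPM plus 0.05 on a log axis, with circles for the ISS arm, triangles for the LAR arm and bars for group medians. Far2, Scd3, Fa2h, Awat1 and Awat2 each have 1 responder library far above the other 3, and Mgst1 is above all ground controls in 7 of 10 ESE libraries.

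No sebaceous gland gene passed the test between ESE mice and ground controls, and 5 genes of sebum lipid synthesis had their highest levels in the same few libraries of all 3 groups. Far2, Scd3, Fa2h, Awat1 and Awat2 had the same 4 highest libraries of 16: responder replicate 3, non-responder replicate 1, ground control replicate 1 and ground control replicate 4. These are 1 ESE mouse and 1 ground control of each mission arm. For Awat1 the places of ground control replicate 4 and non-responder replicate 1 rested on 5 and 3 counts, so counting error could change them. For Awat2 these places rested on 11 and 9 counts. Mgst1, Elovl3, Mc5r and Krt79 had other sets of 4 highest libraries.

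Far2 (chr6:148047416-148182760 in mm10, 13 exon blocks) encodes fatty acyl CoA reductase 2, which makes the fatty alcohols that go into wax esters. It had 2.12, 12.1, 145 and 3.11 CPM in responder replicates 1 to 4. In non-responders its lowest, median and highest levels were 2.08, 4.76 and 46.9 CPM, and in ground controls 4.87, 13.4 and 88.3 CPM. The 3 groups overlapped over nearly their whole range, and the highest library exceeded the lowest 70.0-fold. The 4 high libraries had 145 CPM in responder replicate 3, 46.9 CPM in non-responder replicate 1, and 88.3 and 51.6 CPM in ground control replicates 1 and 4. The fifth library, ground control replicate 3, had 13.6 CPM. Exons of Far2 overlap those of Ergic2 on the opposite strand, and the strand setting of the counting was not given in the sources used here, so reads of both genes could be mixed. Ergic2 itself was between 14.4 and 36.1 CPM in all 16 libraries, and had 16.6 CPM in responder replicate 3.

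Scd3 (chr19:44203288-44244016), a stearoyl-CoA desaturase known from mouse sebocytes, had 3.08, 16.8, 108 and 2.71 CPM in responder replicates 1 to 4. Its lowest, median and highest levels were 2.62, 3.97 and 57.7 CPM in non-responders and 5.13, 9.63 and 75.2 CPM in ground controls. Responder replicate 3 was the highest of the 16, and 3 of 10 ESE mice were above the ground control median. Reads mapped to several places were left out by the authors, so reads that Scd3 shares with Scd1, Scd2 or Scd4 are missing from it and its level is uncertain to that extent. The other desaturases of the family had other patterns: Scd1 was highest in the fat-rich non-responder replicate 4 (5248 CPM, against 374 CPM in responder replicate 3), Scd2 in responder replicate 4 (132 CPM), and Scd4 in responder replicate 2 (4.16 CPM).

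Counts of Far2 and Scd3 went together within libraries. The ratio of Far2 to Scd3 counts, which no scaling between libraries touches, was 0.685 to 1.53 over the 16 libraries, a 2.23-fold range, while each gene alone ranged 70.0-fold and 41.4-fold. The ratio of Mgst1 to Scd3 counts ranged 373-fold over the same libraries and that of Elovl3 to Scd3 97.1-fold. Fa2h to Scd3 ranged 11.8-fold, with Fa2h counts as low as 3 in a library.

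**Figure D2:**
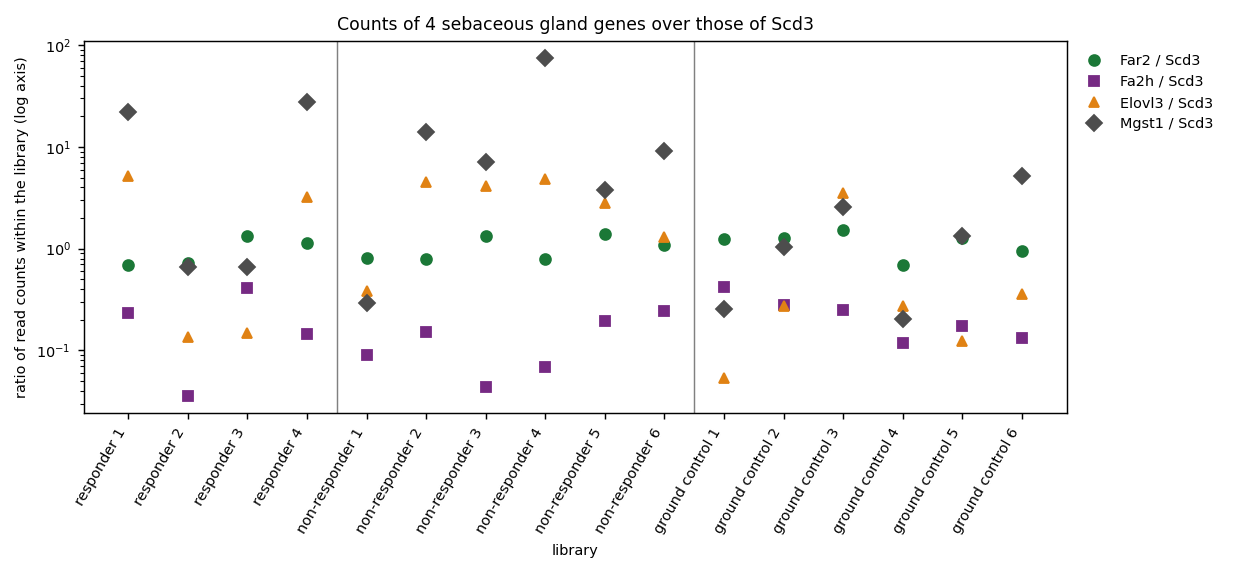
Ratio of the read counts of Far2, Fa2h, Elovl3 and Mgst1 to those of Scd3 within each of the 16 libraries, on a log axis, with responder libraries left, non-responder libraries in the middle and ground control libraries right. The Far2 points stay between 0.685 and 1.53, and the Mgst1 points spread between 0.202 and 75.6.

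Fa2h (chr8:111345138-111393821), fatty acid 2-hydroxylase, makes the hydroxylated chains of sphingolipids and of sebum. It had 0.725, 0.595, 44.8 and 0.396 CPM in responder replicates 1 to 4. Its lowest, median and highest levels were 0.165, 0.782 and 5.21 CPM in non-responders and 0.680, 2.56 and 29.3 CPM in ground controls. Responder replicate 3 and ground control replicate 1 alone held 73.7% of the CPM summed over the 16 libraries. Without responder replicate 3 the log2 fold change of responders against ground controls was -3.72, against 0.62 with it.

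Awat2 (chrX:100402222-100442717) and Awat1 (chrX:100572247-100578206) encode acyl-CoA wax alcohol acyltransferases, which join a fatty alcohol to a fatty acid. Awat2 had 0.363, 0.198, 10.2 and 0.457 CPM in responder replicates 1 to 4, with a median of 0.623 CPM in non-responders (0.148 to 3.35) and of 0.852 CPM in ground controls (0.291 to 4.16). Awat1 had 1, 2, 124 and 0 counts in responder replicates 1 to 4, 0 to 9 counts in non-responders and 0 to 34 counts in ground controls. It was at 0 in 5 libraries, in which 3 counts would be 0.0914 to 0.830 CPM. The 3 counts were taken as an approximate upper limit for a count of 0 by counting error alone, and not as a strict bound. Dgat2, the more broadly expressed relative of both in the acyltransferase family, was highest in the fat-rich non-responder replicate 4 (1028 CPM) and between 39.8 and 164 CPM in the other 15 libraries.

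Summed markers of other parts of the epithelium were high in the libraries that were high in these 5 genes. The 4 libraries high in Far2 were also the 4 highest of 16 for the summed CPM of 12 genes of the follicle infundibulum and stem compartment. That sum was 20481 CPM in responder replicate 3, 13518 CPM in non-responder replicate 1, and 11349 and 13474 CPM in ground control replicates 1 and 4, and was 1534 to 9831 CPM in the other 12 libraries. Its 2 most abundant genes, Krt75 and Krt17, reached 8668 and 7786 CPM in responders. They reached 5469 and 5001 CPM in non-responders and 5659 and 5665 CPM in ground controls. The sum is weighted toward these 2 genes, and the order of the libraries without them was not tested. The same 4 libraries were the highest for the summed CPM of 10 of the 11 interfollicular epidermis genes listed, at 18518 to 21887 CPM, against 3825 to 16290 CPM in the other 12. Flg, the other gene of that list, was not analysed here. The summed fat, muscle, liver and fibroblast lists had at most 1 of these 4 libraries among their 4 highest, and the anagen hair list had 1. The summed list of 30 other genes of the gland and of sebum lipid synthesis had 2, responder replicate 3 and ground control replicate 4. Non-responder replicate 1 and ground control replicate 4 were also among the 3 libraries with the fewest counts (under 7000000). By DV200, an RNA quality percent from the Bioanalyzer, responder replicate 3 was the highest of the 16 (79%) and ground control replicate 4 the lowest (43.5%). Ground control replicate 1 had the highest RNA integrity number (2.7). The part of these differences in the sebaceous genes was not tested. Of the 5 genes, Fa2h had the largest fold between the highest and the fifth library, 15.4, and Scd3 the smallest, 6.43.

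**Figure D3:**
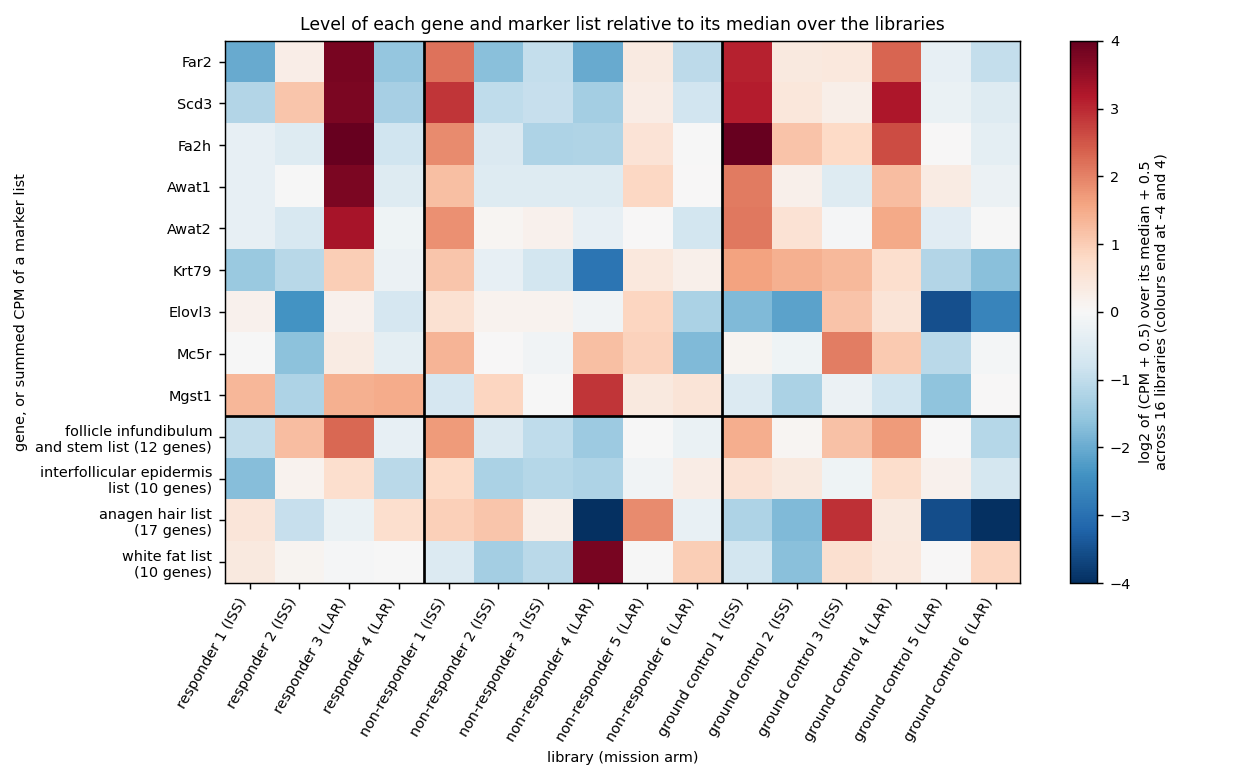
Level of each gene, and the summed CPM of 4 marker lists below the line, in each library relative to its median over the 16 libraries, as log2 of values plus 0.5, with responder libraries left, then non-responder and ground control libraries. Responder 3, non-responder 1, ground control 1 and ground control 4 are red in Far2, Scd3, Fa2h, Awat1 and Awat2 and in the follicle list. In the epidermis list these libraries are only pale red, at 18518 to 21887 CPM over a median of 12516 CPM.

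Krt79 (chr15:101929332-101940324), the keratin of the duct and follicle funnel, was highest in the 3 ground controls of the ISS arm. It had 38.1, 49.9, 215 and 91.7 CPM in responder replicates 1 to 4. Its lowest, median and highest levels were 13.8, 105 and 234 CPM in non-responders and 33.5, 217 and 327 CPM in ground controls. In the ISS arm the 5 ESE mice had 38.1 to 234 CPM and the 3 ground controls 263 to 327 CPM, so that the groups did not overlap. Of 14381 genes tested by arm, 0.876% were lower in this way in the ISS arm, and Krt79 was the only member among them. In the LAR arm the 5 ESE mice had 13.8 to 215 CPM and the 3 ground controls 33.5 to 171 CPM, and the range of the ESE mice enclosed that of the ground controls. The summed interfollicular epidermis list had a median of 5651 CPM in the 5 ESE mice (3825 to 21887) and of 16290 CPM in the 3 ground controls (11053 to 18518) of that arm. Krt14, a keratin of basal keratinocytes, had a median of 340 CPM in these ESE mice (222 to 1885) and of 1603 CPM in these ground controls (883 to 1799). Non-responder replicate 1 was above all 3 of these ground controls in both Krt14 (1885 CPM) and the list (21887 CPM), but below them in Krt79 (234 CPM). Responder replicate 2 lay within their range for the list (13655 CPM) and below it for Krt14. The other ESE mice of that arm were below these ground controls in both. The summed follicle infundibulum and stem list had a median of 2797 CPM in the ESE mice of that arm (2075 to 13518). In its ground controls the median was 9324 CPM (4394 to 11349). Of the 12 genes of that list, 0 had a log2 fold change above 0 in the ISS arm, and the median was -0.65. Between the ground controls, LAR over ISS, 11 of the 12 were below 0. The part of Krt14 and of both lists in the Krt79 result was not tested.

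The log2 fold change of Krt79 between ESE mice and ground controls of the ISS arm was -1.64 (SE 0.71, adjusted p = 0.998 by edgeR's quasi-likelihood test). In the LAR arm it was 0.49 (SE 0.73, adjusted p = 0.865 by edgeR), and 1.54 without ground control replicate 4. The difference of the arms, LAR minus ISS, was 2.13 (SE 1.03, adjusted p = 0.999 by edgeR). The ground controls of the arms also had unequal levels: Krt79 had 84.1 ± 75.7 CPM in LAR ground controls and 292 ± 32.1 CPM in ISS ground controls (SD, n = 3 each), so that LAR over ISS was -1.81 on the log2 scale (SE 0.83, adjusted p = 0.538 by edgeR). None of these passed the threshold of 0.05 by that test. By limma-voom with quality weights, which called 1858 genes in the ISS arm against 0 by edgeR, Krt79 had a log2 fold change of -2.12 in that arm and passed (adjusted p = 0.0170, with a range over the other settings up to 1).

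Elovl3 (chr19:46131899-46135694) elongates saturated and monounsaturated chains in the mouse gland, in hair follicles and in brown fat. It had 16.1, 2.28, 16.0 and 8.68 CPM in responder replicates 1 to 4. Its lowest, median and highest levels were 5.53, 15.6 and 26.2 CPM in non-responders and 0.777, 3.31 and 31.6 CPM in ground controls. Of the 10 ESE mice, 9 were above the ground control median, but ground control replicates 3 and 4, at 31.6 and 20.4 CPM, reached or passed most of them. Both of these were among the 3 libraries with under 7000000 counts, and replicate 3 had the highest anagen hair sum of the 16 libraries (169984 CPM). Ground control replicate 4 had a sum of 29792 CPM, and the other ground controls 864 to 9593 CPM. The median of that sum was 28977 CPM in ESE mice and 8116 CPM in ground controls. Non-responder replicate 4 went the other way, with 12.7 CPM of Elovl3 at a sum of 1031 CPM. The part of hair follicle RNA in Elovl3 was not tested. The log2 fold change between ESE mice and ground controls was 0.51 (SE 0.67, adjusted p = 0.796 by edgeR's quasi-likelihood test). It was 1.31 without ground control replicate 3 and 2.51 without the 3 libraries under 7000000 counts. In the ISS arm it was 0.21 (SE 0.98, adjusted p = 0.998 by edgeR), and 2.02 by limma-voom with quality weights (adjusted p = 0.0452, with a range over the other settings up to 1).

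Mc5r (chr18:68337603-68339711), the melanocortin receptor of the gland, had 4.47, 1.09, 5.79 and 3.26 CPM in responder replicates 1 to 4. Its lowest, median and highest levels were 0.959, 6.71 and 12.3 CPM in non-responders and 1.84, 4.50 and 20.2 CPM in ground controls. The highest library was ground control replicate 3 and the lowest non-responder replicate 6, and the groups overlapped throughout. The ratio of Mc5r to Elovl3 counts ranged 13.7-fold over the libraries, and that of Mc5r to Scd3 79.0-fold.

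Mgst1 (chr6:138140537-138156752), a microsomal glutathione S-transferase and peroxidase that is abundant in sebocytes and also in fat and liver, was the member with the lowest p. It had 68.2, 11.2, 72.2 and 75.3 CPM in responder replicates 1 to 4. Its lowest, median and highest levels were 16.8, 36.9 and 198 CPM in non-responders and 8.35, 16.6 and 26.8 CPM in ground controls. All ground controls were at or under 26.8 CPM, 7 of 10 ESE mice were above all of them, and 9 of 10 were above their median. The groups overlapped through responder replicate 2 and non-responder replicates 1 and 3. Of the 4 highest libraries, non-responder replicate 4 had the highest white fat sum and responder replicate 1 the highest liver sum (2414 CPM over 7 genes in the table), while responder replicates 3 and 4 had 559 and 576 CPM of white fat genes and 18.9 and 6.43 CPM of liver genes, where the medians of the 16 libraries were 581 and 18.8 CPM. The part of fat and liver RNA in Mgst1 was not tested.

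Mgst1 averaged 59.1 ± 53.7 CPM in ESE mice (SD, n = 10) and 17.0 ± 7.04 CPM in ground controls (SD, n = 6). Its log2 fold change came to 1.80 (SE 0.53), with an unadjusted p of 0.00337 and an adjusted p of 0.624 by edgeR's quasi-likelihood test, rank 57 of 13577 genes. The highest library was the fat-rich non-responder replicate 4, and without it the log2 fold change was 1.39. In responders the difference from ground controls was 1.74 on the log2 scale (SE 0.62, adjusted p = 0.976 by edgeR), and in non-responders 1.84 (SE 0.58, adjusted p = 0.660 by edgeR), or 1.02 without replicate 4. These comparisons share the ground controls. Between the cohorts the log2 fold change, responders over non-responders, was -0.095 (SE 0.63, adjusted p = 0.9999 by edgeR).

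In the LAR arm the 5 ESE mice had 35.4 to 198 CPM of Mgst1 and the 3 ground controls 8.35 to 26.8 CPM, with no overlap. Of 14381 genes, 1.56% were higher in this way in that arm, and Mgst1 was the only member among them. ESE mice differed by 2.31 on the log2 scale (SE 0.69, adjusted p = 0.386 by edgeR's quasi-likelihood test). DESeq2 gave 2.35 with an adjusted p of 0.0400, past the threshold, while the range over the other settings reached 0.731. In the ISS arm the 5 ESE mice had 11.2 to 68.2 CPM and the 3 ground controls 10.7 to 22.7 CPM, and the difference was 1.02 (SE 0.65, adjusted p = 0.998 by edgeR), or 0.63 without responder replicate 1. The difference of the 2 effects, LAR minus ISS, was 1.29 (SE 0.89, adjusted p = 0.999 by edgeR), or 0.70 without non-responder replicate 4. Among the ESE mice alone, LAR over ISS was 1.28 (SE 0.54, adjusted p = 0.877 by edgeR), and 0.65 without non-responder replicate 4.

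Across all members, the comparison of ESE mice with ground controls called 0 of the 8 tested, and 0% of 13577 genes, at an adjusted p under 0.05 by edgeR's quasi-likelihood test. At an unadjusted p under 0.05 it had 1 of 8 members, Mgst1, and 7.86% of all genes (3.06% higher). The likelihood ratio test of edgeR called 13 genes and DESeq2 3 genes, and no member was among them. Of the 8 members, 3 were higher in ESE mice, and the median log2 value was -0.37, against -0.040 over all genes. That median was 0.37 without ground control replicate 1 and -1.17 without responder replicate 3. By limma-voom with quality weights 2 of 8 were above 0, with a median of -1.06. At an unadjusted p under 0.05 by that test, 2 members were higher and 3 lower. Apart from Mgst1 the values by edgeR's quasi-likelihood test were -0.83 for Krt79 (SE 0.55), -0.48 for Scd3 (SE 0.93), -0.45 for Fa2h (SE 1.18), -0.39 for Mc5r (SE 0.56), -0.35 for Far2 (SE 0.96), 0.085 for Awat2 (SE 0.91) and 0.51 for Elovl3 (SE 0.67). For Scd3, Fa2h, Far2, Awat2, Mc5r and Elovl3 the SE was larger than the difference itself.

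The spread of the members over the libraries was wide for this table. The SD of log2 CPM, with 0.5 added to each CPM before the log, was 1.06 to 1.85 in the 8 tested members. Each lay above that of 89.1% to 98.2% of the 13577 genes. The added 0.5 narrows the SD of genes at low levels, such as Awat2 (median 0.586 CPM) and Fa2h (median 1.05 CPM). Fa2h, Far2 and Scd3 were the widest, at 1.85, 1.84 and 1.79.

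**Figure D4:**
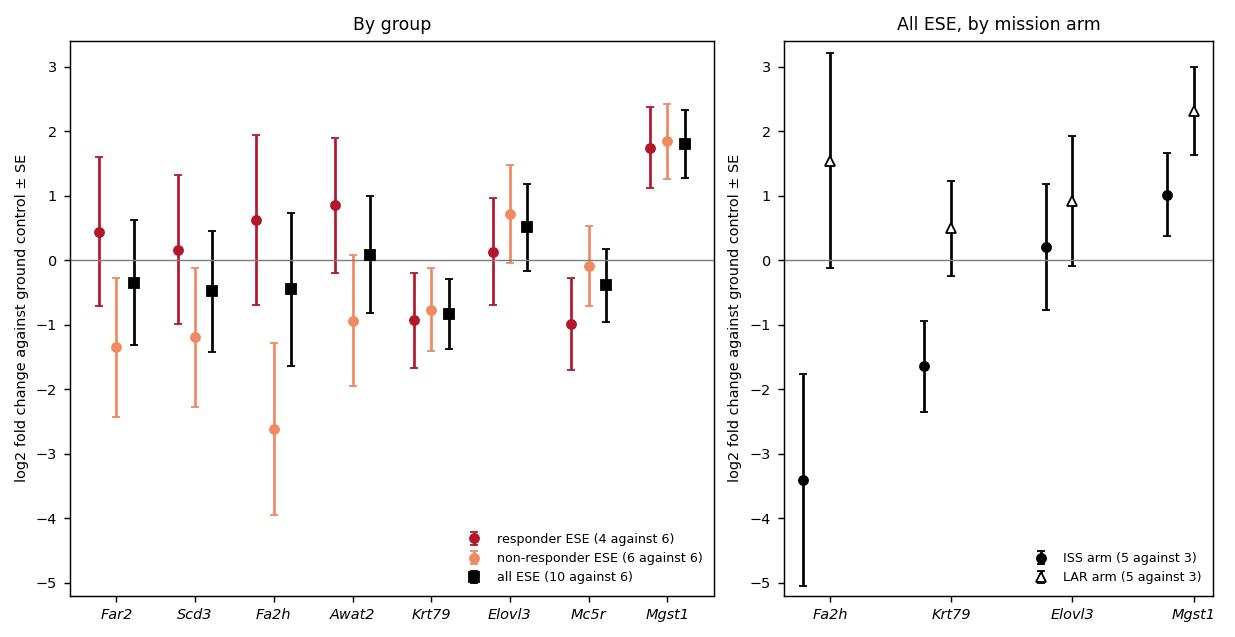
Log2 fold change against ground controls with its SE, by edgeR, for the 8 tested genes in responders, non-responders and all ESE mice (left), and for 4 of them within the ISS and LAR arms (right). The SE bars of Mgst1 stay above 0 in all 3 comparisons on the left, where the value for all ESE mice is 1.80, and those of Far2, Scd3, Fa2h and Awat2 are wide.

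Responders against ground controls had 0 of 8 members past the threshold, where 0.00709% of 14107 genes passed (1 gene), and 1 of 8, Mgst1, at an unadjusted p under 0.05, where 3.42% of genes were. Of the 8, 6 were above 0, and the median log2 value was 0.30, against -0.046 over all genes. In non-responders against ground controls 0 of 8 passed, with 0% of all genes, and 1 of 8, again Mgst1, at an unadjusted p under 0.05, with 6.96% of genes. Of the 8, 2 were above 0, and the median was -0.86, against -0.046 over all genes. The responder values of Far2 (0.44, SE 1.15), Scd3 (0.16, SE 1.16), Fa2h (0.62, SE 1.31) and Awat2 (0.85, SE 1.04) turned to between -3.72 and -1.97 when responder replicate 3 was left out. The non-responder values were -1.35 for Far2 (SE 1.08), -1.20 for Scd3 (SE 1.07), -2.62 for Fa2h (SE 1.33) and -0.94 for Awat2 (SE 1.01). Without non-responder replicate 1 they were -2.46, -2.65, -3.39 and -1.64 for these genes in that order. Without ground control replicate 1 they were -0.58 for Far2, -1.25 for Fa2h and -0.24 for Awat2, and Scd3 was -0.67 without either ground control replicate 1 or 4. Krt79, Elovl3 and Mc5r had -0.93 (SE 0.74), 0.13 (SE 0.83) and -0.99 (SE 0.71) in responders, and -0.77 (SE 0.65), 0.72 (SE 0.75) and -0.088 (SE 0.62) in non-responders. Responders against non-responders again had 0 of 8 members and 0% of all genes, and at an unadjusted p under 0.05 1 of 8, Fa2h, and 2.17% of genes. The log2 fold change of Fa2h was 3.24 (SE 1.42, adjusted p = 0.9999 by edgeR's quasi-likelihood test) and -1.14 without responder replicate 3.

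By mission arm, 0 of 8 members and 0% of 14381 genes passed in the ISS arm, in the LAR arm and for the difference of the arms. At an unadjusted p under 0.05 there was 1 of 8 in the ISS arm (Krt79, with 2.39% of genes), 1 of 8 in the LAR arm (Mgst1, with 9.37%) and 0 of 8 for the difference (with 4.80%). Between the arms, LAR over ISS, ground controls had 0 of 8 members past the threshold (0% of genes) and 1 of 8, Krt79, at an unadjusted p under 0.05 (9.07% of genes), and ESE mice had 0 of 8 (0%) and 1 of 8, Mgst1 (5.44%). In the ISS arm 2 of 8 members were above 0, and the median log2 value was -1.06, against 0.020 over all genes. With 1 library left out it was -2.10 without non-responder replicate 1 and -0.15 without ground control replicate 1. In the LAR arm 7 of 8 were above 0, and the median was 0.80, against -0.038 over all genes. Without ground control replicate 1 and responder replicate 3, an alternative added after the data were seen, these medians were -0.14 in the ISS arm and -0.62 in the LAR arm. The LAR median was -0.62 without responder replicate 3. Over 9 members, since Awat1 then passed the filter, it was 2.38, 0.36 and 0.43 without ground control replicates 4, 5 and 6 in that order. By limma-voom with quality weights, which called 1858 genes in the ISS arm, 2 of 8 members were above 0 there (median -1.67). At an unadjusted p under 0.05 by that test, 2 were higher and 4 lower in that arm. In the LAR arm it had 4 of 8 above 0 (median -0.0012), with 2 higher and 0 lower at that p. Fa2h had a log2 fold change of -3.40 in the ISS arm (SE 1.64, adjusted p = 0.998 by edgeR) and 1.54 in the LAR arm (SE 1.67, adjusted p = 0.801 by edgeR), and their difference was 4.94 (SE 2.39, adjusted p = 0.999 by edgeR). Leaving out responder replicate 3 gave -2.02 in the LAR arm, and leaving out ground control replicate 1 gave -1.19 in the ISS arm. Elovl3 had 0.92 in the LAR arm (SE 1.01, adjusted p = 0.802 by edgeR) and a difference of the arms of 0.72 (SE 1.38, adjusted p = 0.999 by edgeR), and its LAR value was 3.37 without ground control replicate 4.

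Of 30 other genes of the gland and of sebum lipid synthesis, 0 passed in the comparison of ESE mice with ground controls, 20 were above 0, and 8 had an unadjusted p under 0.05, all higher in ESE mice, where 3.06% of all genes were. Their median log2 fold change was 0.63, against -0.040 over all genes, and -0.053 over 29 genes, with 13 above 0, when the fat-rich non-responder replicate 4 was left out. By limma-voom with quality weights 14 of 30 were above 0, with a median of -0.046, and 3 were higher and 5 lower at an unadjusted p under 0.05. By arm, 10 of 30 were above 0 in the ISS arm (median -0.14) and 23 of 30 in the LAR arm (median 1.08). Without ground control replicate 1 the ISS count was 17 of 30 (median 0.0090), and without non-responder replicate 4 the LAR count was 22 of 30 (median 0.40). White fat uses many of these genes too. The 4 of smallest p were Elovl5 and Fads1, which elongate and desaturate polyunsaturated chains, and Fasn and Acaca, which build palmitate. Fasn had 461 to 851 CPM in responders, 553 to 24080 CPM in non-responders and 623 to 674 CPM in ground controls. Its log2 fold change of 2.38 (SE 0.93, adjusted p = 0.624 by edgeR) was 0.73 without non-responder replicate 4, and that of Acaca, 1.92 (SE 0.77, adjusted p = 0.624 by edgeR), was 0.63.

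Elovl5 and Fads1 depended less on that library. Elovl5 averaged 12.9 ± 3.88 CPM in ESE mice (SD, n = 10) and 7.68 ± 2.26 CPM in ground controls (SD, n = 6). Its log2 fold change was 0.76 (SE 0.24, adjusted p = 0.624 by edgeR), and 0.67 to 0.88 with each library left out in turn. Fads1 averaged 16.3 ± 10.6 CPM in ESE mice and 6.48 ± 2.40 CPM in ground controls, and its log2 value was 1.34 (SE 0.46, adjusted p = 0.624 by edgeR), which stayed between 1.18 and 1.53 in the same way. Both genes overlapped between the groups.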

How the data were processed

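The raw read counts per gene were deposited by the authors, who ran STAR against mm10 and featureCounts on the uniquely placed reads that passed a quality threshold. Their filter on low counts and strand setting are not given in the sources used here. The RNA integrity number is a score and DV200 a percent that the authors deposited from the Bioanalyzer. The deposited log2 FPKM and the authors' own fold changes and p-values were not used. All 16 count columns were matched to samples by name. Replicates were numbered in accession order. The mission arm of each mouse was taken from the study's supplementary sample table.

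Counts were filtered by filterByExpr, scaled by TMM and tested by the robust quasi-likelihood F test of edgeR 4.0.16 (R 4.3.3, limma 3.58.1), with Benjamini-Hochberg adjustment over all genes and a threshold of 0.05, in fits with 2 groups (13577 genes), 3 groups (14107 genes) and exposure by arm (14381 genes). SE is the log2 fold change over the square root of F. The test was tried on simulated data first. Alternatives were limma-voom with quality weights, DESeq2 1.42.0, edgeR's likelihood ratio test, other scaling and filters, the arm as covariate and each library left out. Tables and figures were made in Python 3.11.15.

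Named were all members, the 4 other sebum lipid genes of smallest p, the measured Scd and Dgat2 family genes and up to 2 markers per other cell type. Rn45s, Ergic2, Flg and Krt14 were named after their values or rows were seen. Members and lists were chosen with earlier results of these data known. p-values measure the spread between mice, and floors cover counting error only. Promoters are from RefSeq (GRCm38.p6), whose coordinates are those of mm10.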

Additional observations from a re-analysis of the deposited data

Results flagged for a closer look

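Of 27 sets of values (9 genes in 3 groups), 12 had a library far from the others of its group by Dixon's test at the 95% level. Chance flags about 1 set in 20 only where values are normally distributed. The test was run on CPM without a log, and values skewed to the high side are flagged more often. The 12 of 27 can therefore not be set against that rate. In responders, replicate 3 stood above the other 3 in Scd3 (108 CPM), Awat1 (9.21 CPM), Awat2 (10.2 CPM), Far2 (145 CPM) and Fa2h (44.8 CPM), and replicate 2 stood below them in Mgst1 (11.2 CPM). In non-responders, replicate 1 stood above the other 5 in Scd3 (57.7 CPM), Awat2 (3.35 CPM), Far2 (46.9 CPM) and Fa2h (5.21 CPM), and replicate 4 in Mgst1 (198 CPM). In ground controls, replicate 1 stood above the other 5 in Fa2h (29.3 CPM). The sets are not independent, since 10 of the 12 concern 5 genes with the same 4 highest libraries.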

How the results depend on the processing

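No paired analysis was possible because GEO's labels give the groups no shared replicate numbers. Some mouse names in the study's sample table share a number across groups, but the sources used here do not say that this marks a pair, and no block was fitted on it. No member passed in the 9 comparisons by edgeR's quasi-likelihood test with other scaling (RLE), without robust estimation, without the filter, without Rn45s or with any 1 library left out. Counts of all genes called moved with the tool. The likelihood ratio test called 13 genes in ESE mice, 21 in responders, 70 in the LAR arm, 15 between ground controls of the arms and 55 between ESE mice of the arms, and DESeq2 called 3, 20, 113, 100 and 94 in these, 3 in non-responders and 5 between the cohorts. Limma-voom called 1858 in the ISS arm. The 1 gene called in responders was 0 with limma-voom, no filter, the arm as covariate, the 2 groups alone, without ground control 1 and responder 3, and without the 3 libraries under 7000000 counts, and 0 to 1 with 1 library left out.

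With limma-voom, log2 fold changes turned to -1.15 for Awat2 in ESE mice, -0.74 for Scd3, -0.69 for Awat2, -1.07 for Far2 and -1.59 for Fa2h in responders, 0.089 for Mc5r in non-responders and 0.35 for Mgst1 between the cohorts. Awat2 in ESE mice was -0.12 with the arm as covariate. Without ground control 1 and responder 3, an alternative chosen after seeing the data like the next one, values were -0.61 for Awat2 in ESE mice, -1.48 for Scd3, -1.46 for Awat2, -1.66 for Far2, -2.42 for Fa2h and -0.30 for Elovl3 in responders, -1.17 for Fa2h between the cohorts, -0.24 for Elovl3 in the ISS arm, -2.02 for Fa2h in the LAR arm and -0.89 for Fa2h between the arms. Without the 3 libraries under 7000000 counts they were -0.040 for Awat2 and 0.42 for Mc5r in ESE mice and 0.70 for Mc5r in non-responders. The cause of these changes was not tested.

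With 1 library left out, values in ESE mice ran from -1.42 to 0.046 for Scd3, -1.32 to 0.75 for Awat2, -0.60 to 0.20 for Mc5r, -1.63 to 0.38 for Far2 and -2.93 to 0.84 for Fa2h, lowest without responder replicate 3 (Mc5r without ground control replicate 5) and highest without ground control replicate 1, 4 or 3. In responders they ran from -1.97 to 0.69 for Scd3, -2.12 to 1.48 for Awat2, -2.39 to 1.15 for Far2, -3.72 to 1.90 for Fa2h and -0.14 to 0.93 for Elovl3. Mc5r in non-responders ran from -0.31 to 0.50. Between the cohorts Mgst1 ran from -0.30 to 0.74 and Fa2h from -1.14 to 4.01. Elovl3 in the ISS arm ran from -0.29 to 2.09, Fa2h in the LAR arm from -2.02 to 3.47, and Elovl3 between the arms from -1.17 to 3.16. Mgst1 in ESE mice kept its direction, at 1.39 to 1.99. Depth limited Awat1, Awat2 and Fa2h most, with counts as low as 0, 2 and 3.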
